A study of Arabidopsis thaliana with 12 samples.

Results

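The regions described here lost accessibility in *h3.3ko* mature seeds and lie in distal intergenic sequence. Each had its midpoint outside every protein-coding gene body of the *Arabidopsis thaliana* annotation (TAIR10.1) and more than 500 bp from every protein-coding transcription start site (TSS). The rule selected 771 of the 3278 regions listed with decreased accessibility, which is 23.5%, out of 6714 listed regions in all. The remaining 2507 decreased regions lay inside genes or within 500 bp of a TSS. Of the 3436 regions with increased accessibility, 407 met the same 2 conditions on position (11.8%), and they are called distal increased regions below.

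The study asked how histone H3.3 shapes chromatin of *Arabidopsis* seeds before and during germination, and it profiled accessibility by ATAC-seq, in which the transposase Tn5 cuts DNA that is free of nucleosomes. Both lists compare mature seeds of *h3.3ko* with mature seeds of the WT accession Col, with 2 libraries per genotype. The other 8 of 12 libraries, from imbibed Col and *h3.3ko* seeds and from Col seedlings, do not enter the lists and were not analysed here. The mutant is *htr4/htr4;htr5/htr5;htr8/htr8*, with *HTR4* and *HTR5* disrupted by CRISPR-Cas9 and *HTR8* by a T-DNA insertion. Its seeds were picked by the absence of mCherry among seeds of mothers carrying a *pHTR5::HTR5* rescue transgene on a hemizygous insert, so the mother plants carried a working *HTR5*. Seeds of both genotypes had been stored for 3 months, and nuclei of whole seeds were sorted, so that embryo and endosperm were not separated. For each region 1 value was deposited in a column without a header, and it was read as the log2 fold change in *h3.3ko* relative to Col. The lists hold no value per library, hence no spread between replicates can be given, and the shares below describe lists of regions.

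H3.3 is the histone H3 variant that is placed into chromatin independently of DNA replication, mostly over genes that are or have been transcribed. In *Arabidopsis*, which has a compact genome, most open chromatin lies at the starts of genes. Open sites farther away often hold binding sequences of transcription factors, and some act as enhancers of a gene on either side. Seed development and germination are governed by such factors. The G-box CACGTG is bound by bZIP and bHLH proteins, among them factors of abscisic acid and light signalling. The RY element CATGCA is bound by B3 proteins such as *ABI3* and *FUS3*, which direct seed maturation. TGGGCC is the core of sites bound by TCP factors, and the telo-box AAACCCTA is frequent in promoters of genes for ribosomal proteins.

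The following 9 windows of 200 bp are examples of the sequence in and around such regions, and they do not show how common motifs are. They were taken from members with a large loss, from members near a seed regulator or a microRNA gene, and from the member richest in G-boxes. All are from the TAIR10.1 sequence, plus strand, 5′ to 3′, and none overlaps a protein-coding gene. Capitals mark exact matches, on either strand, to the letters just given for the G-box (which reads the same on both strands), the RY element, the TCP site and the telo-box. Every printed window except the first holds such a match, compared with 40.9% of the central windows of all distal decreased regions. Members of the same kinds whose windows hold none, such as those beside AT1G50060, *ABI4* and *SPT*, are not printed. Windows are centred on the midpoint of the region except for the one between AT2G19802 and *OZF1*, which is the stretch of its region with most G-boxes.
Region with the largest loss, between AT1G07590 and MT1C, chr1:2339836-2340035: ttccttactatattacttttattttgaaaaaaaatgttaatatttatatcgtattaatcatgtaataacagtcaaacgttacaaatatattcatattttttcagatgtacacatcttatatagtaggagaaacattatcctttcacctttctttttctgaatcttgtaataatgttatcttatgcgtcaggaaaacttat
Region between AT3G27910 and MYB0, chr3:10358800-10358999: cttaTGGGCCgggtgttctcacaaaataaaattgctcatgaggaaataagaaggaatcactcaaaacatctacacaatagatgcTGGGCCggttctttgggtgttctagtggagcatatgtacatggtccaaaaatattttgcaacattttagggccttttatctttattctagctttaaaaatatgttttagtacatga
Region between NAC048 and NAC049, chr3:1175293-1175492: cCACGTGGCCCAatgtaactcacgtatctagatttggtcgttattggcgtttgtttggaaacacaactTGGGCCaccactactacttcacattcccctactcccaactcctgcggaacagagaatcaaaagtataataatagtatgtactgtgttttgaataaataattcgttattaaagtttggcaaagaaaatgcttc
Region upstream of AT4G32480, chr4:15675201-15675400: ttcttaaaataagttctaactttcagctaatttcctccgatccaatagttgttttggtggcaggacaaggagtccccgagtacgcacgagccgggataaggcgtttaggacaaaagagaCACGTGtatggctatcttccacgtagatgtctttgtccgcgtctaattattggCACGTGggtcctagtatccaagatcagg
Region upstream of RAP2.4, chr1:29362951-29363150: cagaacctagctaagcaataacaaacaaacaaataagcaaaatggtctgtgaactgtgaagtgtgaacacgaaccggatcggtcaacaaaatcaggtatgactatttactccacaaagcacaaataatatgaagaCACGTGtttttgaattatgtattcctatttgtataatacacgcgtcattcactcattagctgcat
Region upstream of MFT, chr1:6231644-6231843: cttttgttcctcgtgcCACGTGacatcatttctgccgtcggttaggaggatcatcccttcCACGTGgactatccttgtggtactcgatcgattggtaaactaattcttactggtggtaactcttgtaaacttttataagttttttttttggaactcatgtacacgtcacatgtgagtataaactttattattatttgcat
Region downstream of NCED5, chr1:10577002-10577201: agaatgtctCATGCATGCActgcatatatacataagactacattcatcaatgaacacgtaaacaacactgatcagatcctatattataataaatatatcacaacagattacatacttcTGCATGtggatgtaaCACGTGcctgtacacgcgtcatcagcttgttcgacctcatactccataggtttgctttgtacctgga
Region with 6 G-boxes, between AT2G19802 and OZF1, chr2:8544043-8544242: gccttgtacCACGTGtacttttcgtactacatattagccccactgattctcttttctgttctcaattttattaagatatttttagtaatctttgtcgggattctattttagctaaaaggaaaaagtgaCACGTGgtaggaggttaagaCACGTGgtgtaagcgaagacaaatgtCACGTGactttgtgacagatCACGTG
Region upstream of MIR168a, chr4:10578317-10578516: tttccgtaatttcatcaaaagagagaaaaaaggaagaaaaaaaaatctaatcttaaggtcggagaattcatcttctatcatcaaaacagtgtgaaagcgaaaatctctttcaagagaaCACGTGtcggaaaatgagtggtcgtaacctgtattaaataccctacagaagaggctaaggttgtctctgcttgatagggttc

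The region with the largest loss held none of the 4 motifs in its window. By contrast, the window beside *NAC049* held 1 G-box and 2 TCP sites. The window between AT3G27910, its nearest gene, and *MYB0* held 2 TCP sites. In the *MFT* window there were 2 G-boxes. The AT4G32480 window also had 2 G-boxes, but both lay outside the listed region, which is 30 bp wide and held 0. The *NCED5* window held 1 G-box and 4 matches to the RY element, counted on both strands with overlaps. The stretch between AT2G19802, its nearest gene, and *OZF1* had 5 G-boxes within 200 bp.

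In the authors' deposited table, the log2 fold changes of the 771 regions ran from -3.53 to -1.01 with a median of -1.67 (quartiles -1.99 and -1.43). These values chose the members and are given as a description. Other decreased regions had a median of -1.96, and 47.6% of them (1194) were past 4-fold, compared with 23.9% (184) of the distal ones. Widths ran from 11 to 2462 bp with a median of 596 bp, beside a median of 477 bp for other decreased regions. In all, 125 distal regions were wider than 1000 bp and 2 were narrower than 100 bp. Together the distal regions covered 517 kb. Although every midpoint was intergenic, 96 regions (12.5%) reached into a protein-coding gene body by at least 1 bp.

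At the 500 bp limit, the nearest members had their midpoints 501 bp from the TSS of AT1G72820 (log2 fold change -1.45), 503 bp from that of AT1G03220 (-2.07) and 504 bp from that of *TPR2* (-2.07), which encodes a TOPLESS-related corepressor. The 3 closest decreased regions on the other side of the limit were each 497 bp from a TSS, those of AT1G61280 (-1.56), AT2G01275 (-1.46) and *SIB2* (-1.04). The number of decreased regions outside gene bodies fell across the limit without a gap, from 96 at 401 to 500 bp to 66 at 501 to 600 bp.

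Sequence that satisfies the rule, called eligible sequence here, amounts to 44.5 Mb or 37.3% of the genome. The 771 regions thus had a density of 17.3 per Mb of eligible sequence. The distance from a midpoint to the nearest TSS ranged from 501 to 11617 bp, with a median of 1419 bp and quartiles of 868 and 2379 bp. To the nearest gene end of either kind the median distance was 1010 bp (quartiles 625 and 1732 bp).

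Density declined with distance from the TSS. Between 501 and 1000 bp there were 33.6 distal decreased regions per eligible Mb (242 regions), between 1001 and 2000 bp 27.8 (277 regions), between 2001 and 5000 bp 17.8 (230 regions), and beyond 5000 bp 1.53 (22 regions). Distal increased regions had a flatter profile up to 5000 bp, with densities of 13.4, 12.0 and 13.1 per Mb in the same classes, and 1.46 per Mb farther out. The size of the loss hardly varied with distance, since the median log2 fold change was -1.66, -1.68, -1.69 and -1.58 from the nearest to the farthest class. Widths were largest in the nearest class, with a median of 758 bp against 583, 527 and 618 bp in the others.

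The nearest gene end was a TSS for 500 regions (64.9%, 95% Wilson interval 61.4 to 68.1%) and a transcription end site (TES) for 271 (35.1%). Of eligible bases, 51.5% were nearest to a TSS. Distal increased regions showed the opposite order, with 97 of 407 (23.8%) nearest to a TSS, and the shares differed (odds ratio 5.90, Woolf interval 4.49 to 7.74, Fisher's exact test, two-sided, adjusted p = 4.67e-41). Where the nearest end was a TSS, the decreased regions lay at a median of 1078 bp from it. Where it was a TES the median was 719 bp, compared with 254 bp for distal increased regions at a TES. Distances to a TSS and to a TES cannot be set against each other, since the rule leaves out the 500 bp around a TSS only. The same limit held for both lists, and the share of decreased regions nearest to a TSS moved with it, to 74.1% at a limit of 250 bp and 53.9% at 1000 bp. Regions with no base in a gene body numbered 675 of the 771 decreased but only 229 of the 407 increased regions. Of these, 466 decreased and 94 increased regions were nearest to a TSS, and the odds ratio was smaller (3.20).

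Orientation of the flanking genes is tied to the nearest end, which is a TSS between divergent genes and a TES between convergent genes. The contrast in orientation is therefore not independent of the one in nearest end. Between divergent genes, where both neighbours start at the interval, there were 320 regions (41.5%), although such intervals hold 29.1% of eligible sequence. Tandem intervals had 388 (50.3%, beside 52.7% of the sequence) and convergent intervals 63 (8.17%, beside 18.1%). The corresponding densities were 24.7, 16.5 and 7.83 regions per eligible Mb. Among distal increased regions, 134 (32.9%) lay between convergent genes, and the share differed from that of the decreased regions (odds ratio 0.181, interval 0.130 to 0.252, Fisher's exact test, adjusted p = 4.05e-25). With no base in a gene body, 52 of 675 decreased and 60 of 229 increased regions lay between convergent genes (odds ratio 0.235). The median log2 fold change was -1.69 in divergent, -1.66 in tandem and -1.66 in convergent intervals.

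**Figure D1:**
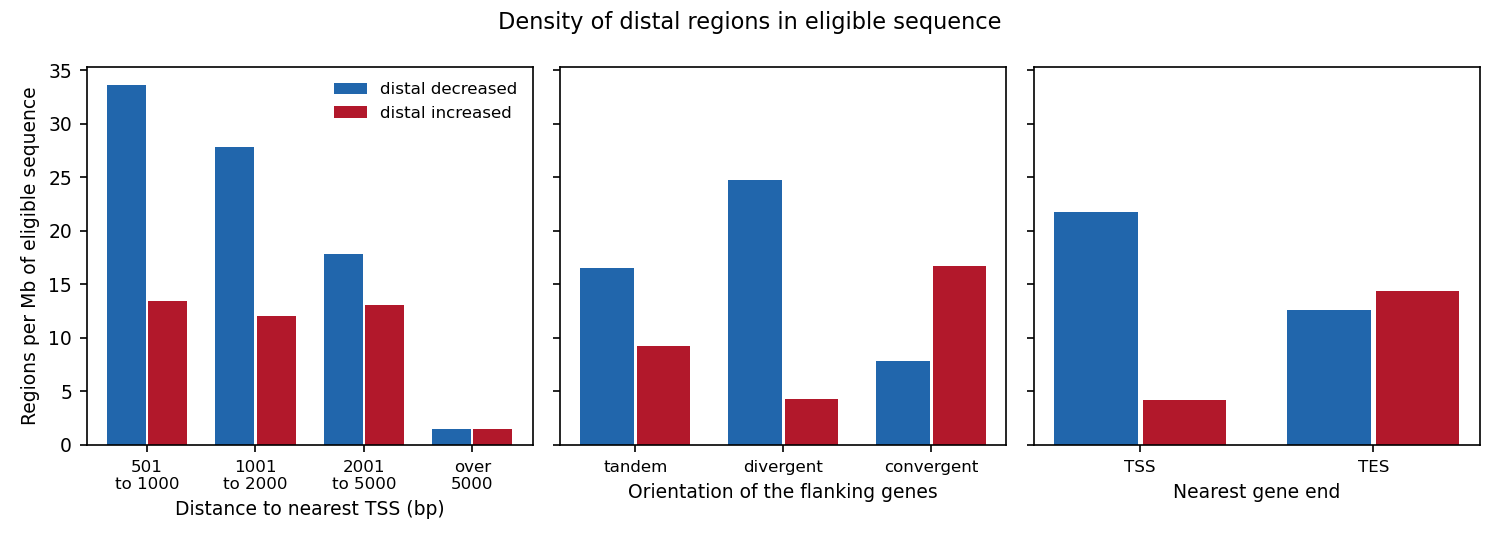
Distal decreased (blue) and distal increased (red) regions per Mb of eligible sequence, by distance to the nearest TSS, by orientation of the flanking genes and by kind of the nearest gene end. Decreased regions fell from 33.6 per Mb at 501 to 1000 bp to 1.53 beyond 5000 bp and were densest between divergent genes (24.7 per Mb), while increased regions were densest between convergent genes (16.7 per Mb).

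The intervals that held distal decreased regions had a median size of 4077 bp (quartiles 2432 and 6289 bp). Intervals of 2001 to 4000 bp and of 4001 to 8000 bp gave 31.0 and 29.7 regions per eligible Mb. Intervals above 8000 bp contain 49.2% of eligible sequence but had 107 regions (13.9%), or 4.89 per Mb. The 771 regions were spread over 701 intervals, of which 639 had 1 region, 54 had 2 and 8 had 3.

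The 8 intervals with 3 regions tied for the largest number, and the first 3 by position are described. Between AT1G20990 and AT1G21000, the latter encoding a PLATZ family protein, the regions had log2 fold changes of -2.07, -1.46 and -1.90 at 2498, 1709 and 709 bp from the nearest TSS. In the interval between AT1G78070 and *RAP2.4*, an AP2/ERF factor gene involved in light and ethylene responses, the values were -1.66, -1.87 and -2.75. The strongest of these lay 1021 bp from the *RAP2.4* TSS, and each of the 3 held 1 G-box and at least 1 RY element. Between AT2G39980, encoding an acyltransferase, and *EIF2* the values were -1.69, -1.50 and -1.69, at 995, 2332 and 3599 bp from the AT2G39980 TSS.

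Along the chromosomes, 192, 122, 138, 140 and 179 regions lay on chromosomes 1 to 5. Per eligible Mb these counts gave 18.1, 14.8, 15.6, 19.5 and 18.7. Within chromosomes the regions followed gene density. Of the 240 windows of 500 kb, 38 had no distal decreased region, and 3 windows shared the highest number, 13. These spanned 29.0 to 29.5 Mb of chromosome 1, 0.500 to 1.00 Mb of chromosome 5 and 26.0 to 26.5 Mb of chromosome 5, all in chromosome arms with 24.8 to 30.8 protein-coding genes per 100 kb. 

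Gene-poor windows, with fewer than 10 protein-coding genes per 100 kb, make up 32.0% of eligible sequence. They contained 13 of the 771 regions (1.69%), and 23 of the 32 such windows contained none. Among distal increased regions 21 of 407 (5.16%) lay in gene-poor windows (odds ratio 0.315, interval 0.156 to 0.636, Fisher's exact test, adjusted p = 0.00206). With only regions changed by more than 4-fold the shares came from 4 of 184 and 19 of 329 regions, and the difference no longer passed Fisher's exact test (odds ratio 0.363, adjusted p = 0.0966). From the gene-poor to the densest class, with 30 or more genes per 100 kb, density rose from 0.912 to 63.9 decreased regions per eligible Mb, and from 1.47 to 20.6 increased regions. Windows under 15 genes per 100 kb held 15.4 Mb of eligible sequence beyond 2000 bp from a TSS and 1.92 Mb at 501 to 2000 bp. Distance varied within both of these classes, and its part in the order was not tested. Among positions 501 to 2000 bp from a TSS, decreased regions numbered 5.20 per Mb in windows under 15 genes per 100 kb, 19.7 at 15 to 25, 35.0 at 25 to 30 and 69.0 at 30 or more. Beyond 2000 bp the corresponding densities were 0.648, 10.3, 27.7 and 52.4.

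**Figure D2:**
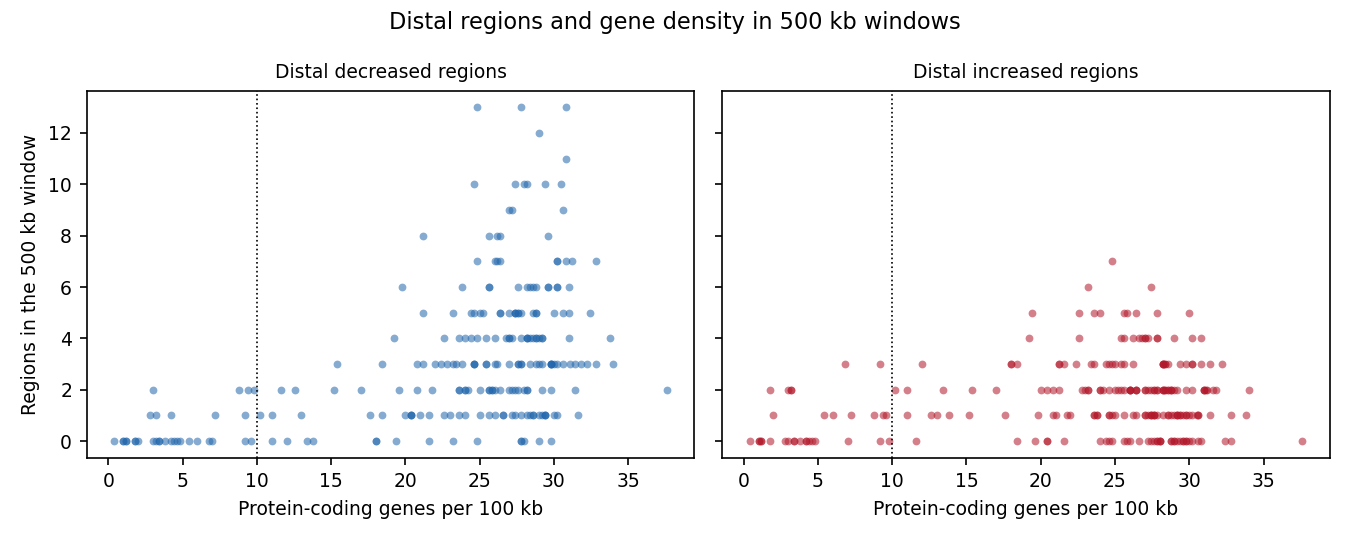
Number of distal decreased (left) and distal increased (right) regions in each of 240 windows of 500 kb, against protein-coding genes per 100 kb in the window, with a dotted line at 10 genes per 100 kb. Windows with 13 decreased regions had 24.8 to 30.8 genes per 100 kb, and 23 of the 32 gene-poor windows had none.

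The gene-poor regions with the largest loss lay near AT4G03450, encoding an ankyrin repeat protein (log2 fold change -2.47, 349 bp past its TES), near *bZIP42*, a leucine-zipper factor gene (-2.26, 1139 bp from its TSS), and near AT3G42160, encoding a pectin lyase-like protein (-2.04, 2588 bp from its TES). The window around *bZIP42* has 3.0 genes per 100 kb and that around AT3G42160 has 4.2.

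The following 5 regions were farthest from any protein-coding gene. The first, at chr4:5267887-5268315 with a log2 fold change of -2.26, lay 11323 bp from AT4G08330 and overlapped a tRNA-Leu gene and a pseudogene. The next, at chr1:15880357-15880713 (-1.56), lay 10746 bp from AT1G42430 in an interval of 130004 bp and held 2 G-boxes. A region at chr5:6399515-6399884 (-2.69) lay 8308 bp from AT5G19100 and overlapped a pair of lncRNA genes on opposite strands, with its midpoint 1 bp from the start of one of them. The region at chr1:11023952-11024346 (-1.73) lay 8236 bp from AT1G30930, an F-box gene, with *UFO*, an F-box gene of floral patterning, as its other neighbour. At chr2:4006086-4006773 (-1.38) the region was 7323 bp from AT2G10440 and overlapped 2 pseudogenes, of which *SADHU1-1* is annotated as a member of a retrotransposon family. These 5 regions thus included 3 that met a non-coding gene or a pseudogene.

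Non-coding genes were considered next, because a region far from protein-coding genes can be the start of another transcript. In total 126 regions (16.3%) overlapped an annotated non-coding gene by at least 1 bp, most often a lncRNA gene (95 regions, 112 genes). A further 11 overlapped genes annotated as misc_RNA, 9 ncRNA, 9 tRNA, 4 snoRNA and 3 snRNA, with some regions counted under several kinds, and none overlapped a microRNA gene. The share did not pass the test against distal increased regions, of which 61 (15.0%) overlapped a non-coding gene (odds ratio 1.11, interval 0.795 to 1.55, Fisher's exact test, adjusted p = 0.630). LncRNA genes were overlapped by 12.3% of decreased and 7.37% of increased regions, and tRNA genes by 1.17% and 4.67%, and these shares were not tested against each other. Midpoints lay inside a non-coding gene in 8.17% of decreased and 7.13% of increased regions, and such genes cover 3.04% of eligible bases. A lncRNA start lay within 500 bp of 91 decreased midpoints (11.8%, 95% Wilson interval 9.71 to 14.3%) and of 25 increased midpoints (6.14%), while 3.77% of eligible bases are that close to one. For tRNA starts the shares went the other way (1.04% and 4.91%, beside 0.499% of eligible bases). For starts of any non-coding gene they were close, at 15.4% and 13.8% (beside 5.89%), and no share of starts was tested. From the nearest to the farthest class of distance from the TSS, overlap with a non-coding gene was 19%, 15.2%, 14.8% and 18.2%.

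Pseudogenes, which this annotation does not tell from genes of transposable elements, cover 23.0% of eligible sequence. They were overlapped by 24 decreased regions (3.11%) and by 37 increased regions (9.09%), a difference that passed the test (odds ratio 0.321, interval 0.189 to 0.545, Fisher's exact test, adjusted p = 4.92e-05). With distance from the TSS the share among decreased regions went from 0.413% at 501 to 1000 bp (1 region) through 2.17% and 5.65% to 18.2% beyond 5000 bp (4 of 22). Altogether 622 of the 771 regions overlapped neither a non-coding gene nor a pseudogene.

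Among regions at small RNA genes, the 4 at snoRNA genes had log2 fold changes of -2.04 (AT2G09680), -1.65 (AT3G24615), -1.45 (AT2G04965) and -1.09 (AT5G07095 and AT5G07105). Those at snRNA genes had -1.72 (*U2.9*), -1.37 (*U2.7*) and -1.21 (*U6.29*). The 5 largest losses at tRNA genes were -2.26 at AT4G08345, -1.67 at AT5G61345, -1.60 at AT5G09975, -1.56 at AT5G02025 and -1.47 at AT5G65305. Only the first of these tRNA genes was far from a protein-coding gene, the others lying in intervals where the midpoint was 580 to 1063 bp from a TSS.

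Surroundings of microRNA genes were looked at after the values were seen. Within 2 kb of a microRNA gene start there were 14 decreased regions (1.82%), a share near the 1.42% of eligible sequence and 1.47% of distal increased regions. Of the 14, 11 lay upstream of the start, with no background share computed for that side. The *MIR156* and *MIR168a* genes described next were also picked after their values were seen. Others with upstream regions included *MIR447a* (-2.47), *MIR2936* (-2.28) and *MIR169h* (-2.10). At *MIR5636* (-3.01), *MIR5662* (-2.30) and *MIR159a* (-1.16) the midpoint lay on the downstream side of the start. Of the *MIR156* genes, whose product represses *SPL* factors and holds plants in the juvenile phase, *MIR156a* had a region with a log2 fold change of -2.51 at 418 bp upstream, *MIR156c* one with -2.12 at 645 bp and *MIR156e* one with -1.74 at 1325 bp. For *MIR168a*, whose product targets *AGO1*, the region had -2.11 and was 218 bp upstream, and its window held 1 G-box. The region at *TAS3*, the source of small RNAs against auxin response factors, had -2.67 with its midpoint 218 bp from the start of that gene.

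Motif content was then compared, as sequence was not used to choose the members. The study had already reported enrichment of bZIP and bHLH motifs, among others, in the open regions that it attributes to H3.3. The choice of the G-box was therefore not blind to these data. A G-box was found in the central 200 bp of 163 of 771 distal decreased regions (21.1%, 95% Wilson interval 18.4 to 24.2%). The share was 17.1% in other decreased regions (428 of 2507), 6.14% in distal increased regions (25 of 407) and 2.14% in 214692 windows of the same length tiled over eligible sequence. It was thus higher than in distal increased regions (odds ratio 4.10, interval 2.64 to 6.36, Fisher's exact test, adjusted p = 6.96e-12). Against other decreased regions the difference was small and depended on the choice of regions (odds ratio 1.30, interval 1.06 to 1.59, Fisher's exact test, adjusted p = 0.0153). With a limit of 250 bp from the TSS it did not pass Fisher's exact test (odds ratio 1.15, adjusted p = 0.180), as with only regions changed by more than 4-fold (odds ratio 1.23, adjusted p = 0.396). 

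TCP sites, with TGGGCC in 14.9% of distal decreased windows (115), were less frequent than in other decreased regions, which had 20.8% (odds ratio 0.667, interval 0.535 to 0.831, Fisher's exact test, adjusted p = 4.88e-04). They were more frequent than in distal increased regions, at 3.19% (odds ratio 5.31, interval 2.95 to 9.56, adjusted p = 1.63e-10 by Fisher's exact test), and tiled sequence had 3.13%. The RY element was present in 11.0% of distal decreased windows (85), above the 6.22% of other decreased regions (odds ratio 1.87, interval 1.41 to 2.46, Fisher's exact test, adjusted p = 4.72e-05), a difference that did not pass Fisher's exact test among regions changed by more than 4-fold (odds ratio 1.91, adjusted p = 0.0685). However, tiled eligible sequence already had 9.34% and distal increased regions 12.0%, and the odds ratio against the latter was 0.905 (interval 0.623 to 1.32, Fisher's exact test, adjusted p = 0.630). Without regions that reached into a gene body that odds ratio was 0.637 and passed Fisher's exact test (adjusted p = 0.0472). The telo-box was found in 10 distal decreased windows (1.30%), fewer than in other decreased regions (3.67%, odds ratio 0.345, interval 0.179 to 0.666, Fisher's exact test, adjusted p = 8.21e-04). Of distal increased windows 1.72% held it, and that comparison did not pass (odds ratio 0.751, interval 0.284 to 1.99, Fisher's exact test, adjusted p = 0.630). Over all 4 motifs, 315 windows (40.9%) held at least 1. Median GC content was 36% in distal decreased, 37.0% in other decreased and 35.5% in distal increased windows and 33.0% in tiled sequence, and its part in the motif shares was not tested.

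**Figure D3:**
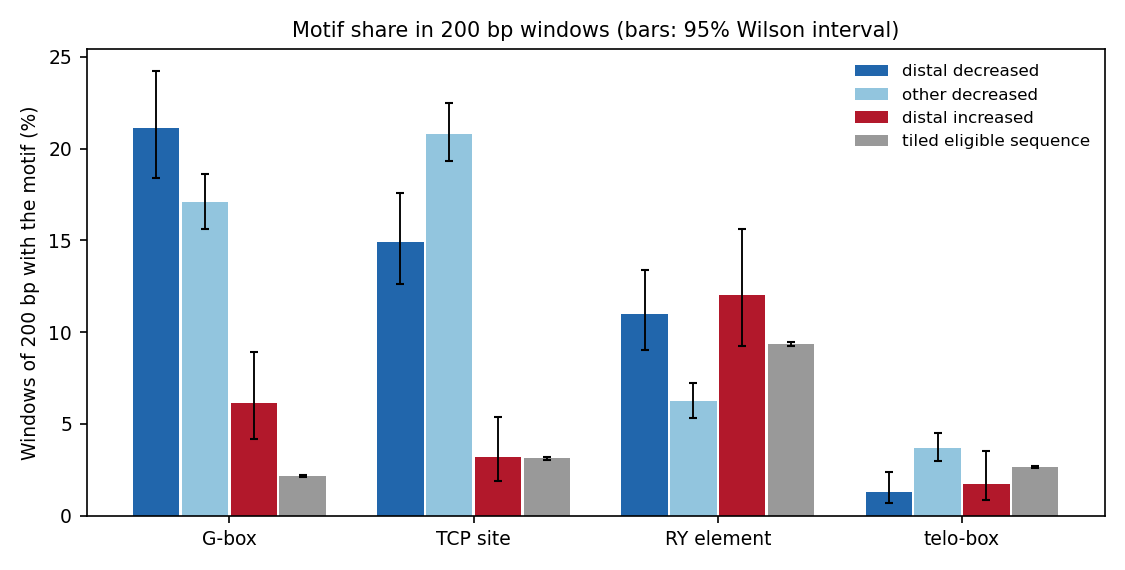
Share of 200 bp windows with an exact match to each motif in distal decreased, other decreased and distal increased regions and in tiled eligible sequence, with 95% Wilson intervals for counting error. The G-box share was 21.1, 17.1, 6.14 and 2.14% in this order, whereas the RY element share of distal decreased regions (11.0%) was near that of tiled sequence (9.34%).

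The motifs also differed in position around the midpoint. The bins reached 500 bp to either side, while the distal decreased regions had a median width of 596 bp (upper quartile 846 bp). The outermost bins thus lay mostly outside the regions, and the profile compares region centres with their surroundings. G-boxes started in the 50 bp bins on either side of the midpoint in 8.30% and 7.91% of distal decreased regions, and in 1.04% and 1.30% in the outermost bins at 475 bp. TCP sites had 5.06% and 5.58% at the midpoint and 1.43% and 1.30% at 475 bp. The RY element showed no such rise, with 2.33% and 3.50% at the midpoint and 2.59% in each outermost bin. In distal increased regions the G-box was at 0.983% and 2.46% in the central bins. The G-box share changed little with distance from the TSS (17.8, 23.1, 22.6 and 18.2% from the nearest to the farthest class) and with orientation (21.4% in tandem, 20.6% in divergent and 22.2% in convergent intervals).

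**Figure D4:**
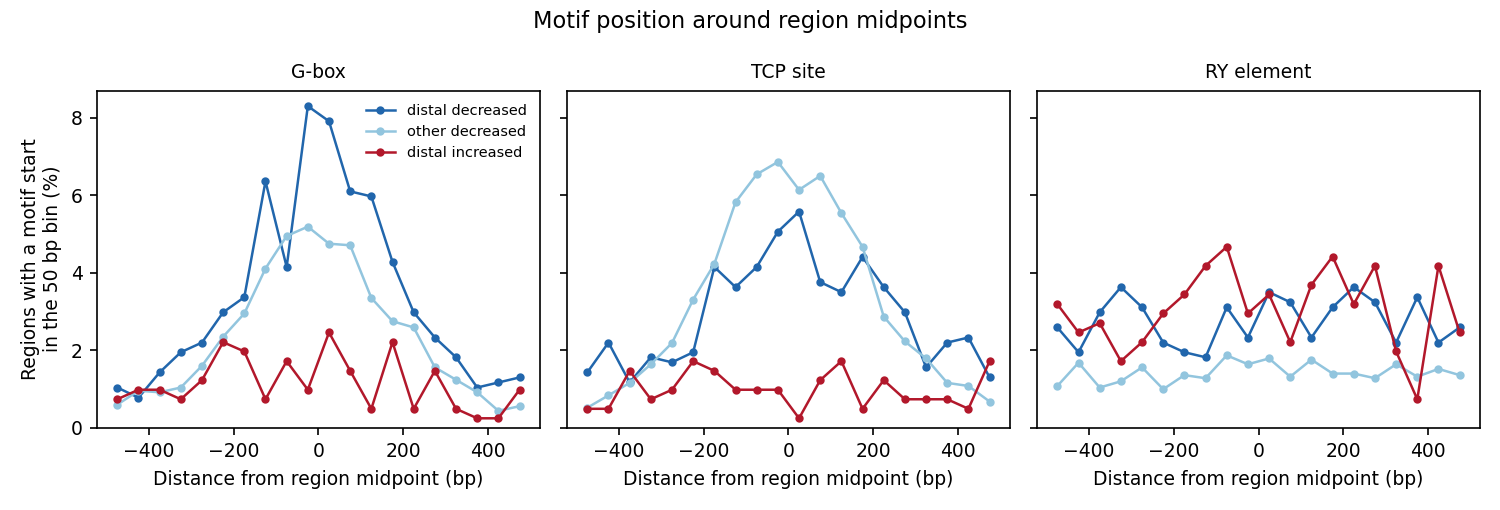
Share of regions with a motif start in each 50 bp bin within 500 bp of the region midpoint, for distal decreased, other decreased and distal increased regions. G-boxes and TCP sites of both sets of decreased regions peaked at the midpoint (8.30% for the G-box in distal regions), and the RY element had no peak.

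Counted over whole regions, 327 (42.4%) held at least 1 G-box, beside 784 of 2507 other decreased regions, which were narrower, and 61 of 407 distal increased regions. Of the 327, 200 had 1, 81 had 2, 29 had 3 and 14 had 4. The region with most, 6 G-boxes and 4 RY elements in 1092 bp, lay 5144 bp from AT2G19802 in the interval shared with *OZF1* and had a log2 fold change of -1.49. Regions with 5 G-boxes lay 798 bp upstream of *TPPF*, which encodes a trehalose-6-phosphate phosphatase (-1.59), and between *ERF4*, an ethylene response factor gene, and AT3G15220 (-1.49). These 3 regions were 1092 to 2103 bp wide, beside the median of 596 bp, and their losses were below the median loss.

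**Figure D5:**
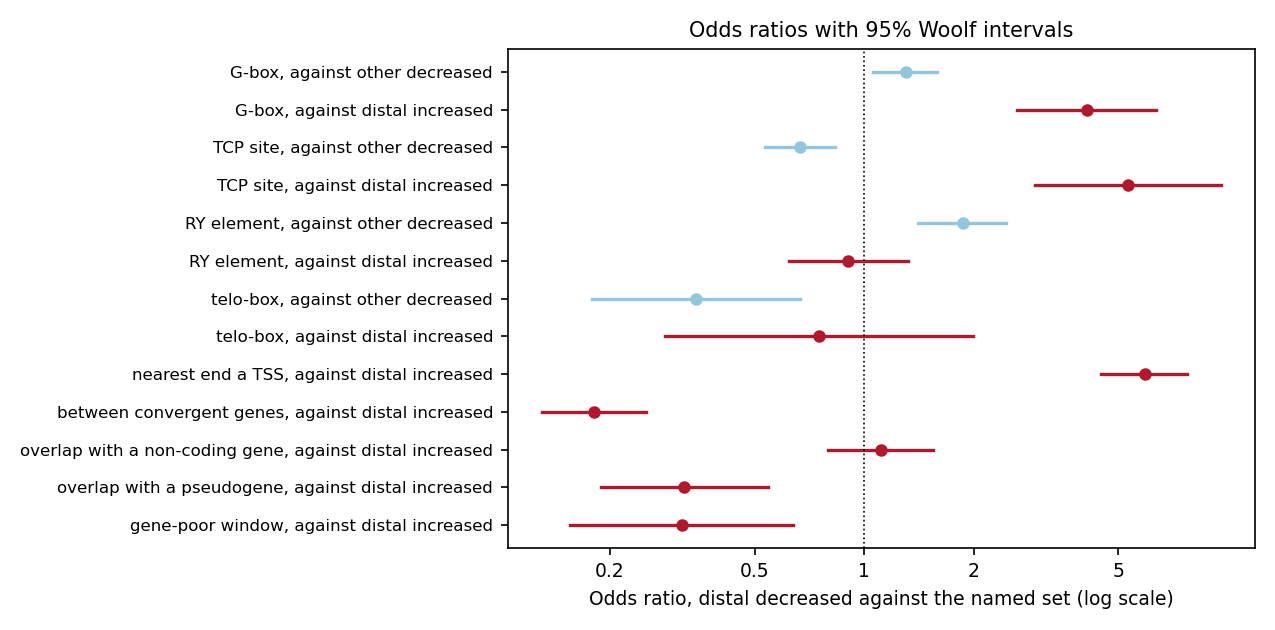
Odds ratios with 95% Woolf intervals for the 13 comparisons of distal decreased regions with other decreased regions (light blue) and with distal increased regions (red), on a log axis with a dotted line at 1. The nearest end being a TSS had the highest odds ratio (5.90) and convergent intervals the lowest (0.181).

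The 10 regions with the largest loss lay beside genes of varied kinds. First was chr1:2339800-2340072 with a log2 fold change of -3.53, between AT1G07590, encoding a tetratricopeptide repeat protein, and *MT1C*, a metallothionein gene, 545 bp upstream of the former. The second, chr3:10358773-10359027 with -3.40, lay in the interval between AT3G27910 and *MYB0*, the trichome regulator also known as *GLABRA1*. The region at chr1:18550077-18550236 (-3.01) was 965 bp upstream of AT1G50060, and its midpoint lay 197 bp past the start of the *MIR5636* gene, outside that gene on its 3′ side. A region of -2.99 was 775 bp from AT2G27520, an F-box gene opposite the ferredoxin gene *FD3*. At -2.93, a region lay 821 bp from the 3′ end of AT4G39780, an AP2/ERF gene, with *TPPH* on its other side.

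Next came the region between the convergent genes *NAC048* and *NAC049* (-2.89, 113 bp from the TES of *NAC049*). The region at chr2:9520721-9521076 (-2.87) lay 3512 bp from the nearest gene in an interval of 8601 bp next to *HB6*, a homeobox gene of abscisic acid responses. Another was 530 bp upstream of AT5G20950, a glycosyl hydrolase gene divergent from *AO1*, which encodes an aldehyde oxidase (-2.86). A region of 30 bp, narrower than the window printed for it, lay 939 bp upstream of AT4G32480 (-2.75). The tenth lay 2298 bp from AT1G13370, annotated as a histone gene, and overlapped the misc_RNA gene AT1G08895 (-2.75). Among these 10 regions 6 lay within 1000 bp upstream of a gene and 4 had a gene's 3′ end as the nearest end.

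The 771 regions had 723 different nearest genes. A decreased region also lay within 500 bp of the TSS in 63 of these genes (8.71%), compared with 10.4% of all 27444 protein-coding genes and 9.11% of the genes nearest to any eligible base. An increased region overlapped the body of 121 nearest genes (16.7%), beside 13% of all genes. Another decreased region lay within 1000 bp of 126 distal ones (16.3%) and an increased region within 1000 bp of 20 (2.59%), and the median gap to the next decreased region was 7059 bp. With genes assigned by overlap with the gene body or 1 kb upstream, 391 regions (50.7%) had no protein-coding gene, 299 had 1, 80 had 2 and 1 had 3. By midpoint, 489 (63.4%) were within 2 kb upstream of a gene, a further 87 (11.3%) within 1 kb downstream and 195 (25.3%) in neither.

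By the words of their annotation, nearest genes were described beside all protein-coding genes and beside the share of eligible bases nearest to such genes, with no test. Transcription factor stood in the product name of 19 nearest genes (2.63%, beside 1.36% of all genes and 1.99% of eligible bases), among them *WRKY6*, *GATA9*, *HSFA7A* and *MAF1*. The Wilson interval of that share, 1.69 to 4.07%, included the share of eligible bases, and nearest genes of distal increased regions had 2.23%. A wider set of family names, mostly of DNA-binding factors and chosen after the data were seen, gave 90 genes (12.4%, beside 6.76 and 8.46%). Because of that choice, its difference from the 2 background shares cannot be read as a result. The set also counted genes annotated as RING-finger proteins (*WAVH1*, AT3G45560) and a helicase with zinc finger (AT2G46420). Kinase was found in 48 (6.64%, Wilson interval 5.04 to 8.69%, beside 5.06 and 3.72%, with 5.71% for distal increased regions). Genes with auxin or SAUR in the name numbered 14 (1.94%, Wilson interval 1.16 to 3.22%, beside 0.605 and 0.830%, with 0.744% for distal increased regions). They included the auxin response factor gene *MP* (-2.02) and the GH3 genes *WES1*, *DFL1*, *JAR1* and *PBS3*, of which *WES1* and *DFL1* each had 2 regions with values down to -2.20 and -2.13. The GH3 genes were counted for the product name of their family, auxin-responsive GH3 protein, whichever hormone each member acts on.

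The words for late embryogenesis abundant, oleosin or seed storage proteins were found in 2 nearest genes (0.277%, beside 0.827% of all genes and 0.741% of eligible bases). Ribosomal was found in 3 (0.415%, beside 1.48 and 0.723%) and pentatricopeptide in 2 (0.277%, beside 0.955 and 0.371%). Peroxidase was found in none, beside 0.368% of all genes and 0.865% of eligible bases. The Wilson intervals of the first 3 words, 0.0759 to 1.00%, 0.141 to 1.21% and 0.0759 to 1.00%, included their shares of eligible bases. Hypothetical or uncharacterized proteins accounted for 57 (7.88%, beside 10.9% of all genes and 20.0% of eligible bases). Of the other words searched, F-box gave 10 genes (1.38%, beside 2.38 and 1.94%), DUF 37 (5.12%, beside 4.44 and 5.07%), zinc finger 12 (1.66%, beside 1.90 and 2.11%) and cytochrome P450 9 (1.24%, beside 0.904 and 0.861%). Transmembrane gave 3 (0.415%, beside 1.03 and 0.817%) and defensin 3 (0.415%, beside 0.412 and 1.27%). Heat shock gave 2 (0.277%, beside 0.408 and 0.323%), expansin or xyloglucan 2 (0.277%, beside 0.251 and 0.325%) and lipid transfer 1 (0.138%, beside 0.506 and 0.632%).

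Regulators of seed maturation, dormancy and germination were looked up by name. Of 69 names, 64 matched 61 genes, 2 pointed to several genes and 3 were not matched. Of these 61 genes 7 were the nearest gene of a distal decreased region (11.5%), beside 2.63% of all protein-coding genes. The latter share is over 27444 genes, of which 20579 were nearest to any eligible base, and the length of eligible sequence beside each gene was not matched. The list was put together with results of these data known, and no test was made. A further 11 listed genes, among them *ABI3*, *LEC1*, *SOM* and *GAI*, had a distal decreased region in the interval beside them that was nearer to the gene on its other side.

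On the abscisic acid side, *ABI4*, an AP2 factor gene of abscisic acid signalling, had a region with a log2 fold change of -2.30 at 1791 bp from its TSS. *NCED5*, encoding an enzyme of abscisic acid synthesis, had one of -1.88 at 3737 bp past its TES, with 2 G-boxes and 4 RY elements in 677 bp. *MFT*, a gene of the phosphatidylethanolamine-binding family that acts in seed germination, had one of -1.54 at 1550 bp from its TSS with 2 G-boxes. *VAL2*, listed in the annotation as *HSL1* and encoding a B3 repressor of the seed maturation programme, had one of -1.66 at 758 bp past its TES.

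On the gibberellin side, *GID1B*, which encodes a gibberellin receptor, had 2 regions, of -1.84 at 1783 bp and -1.79 at 878 bp from its TSS. *GA20OX3*, encoding a gibberellin 20-oxidase, had one of -1.38 at 1486 bp. *SPT*, a bHLH factor gene acting on germination in the cold, had one of -1.68 at 3562 bp in an interval of 9632 bp. Both *GID1B* and *VAL2* also had a decreased region within 500 bp of their TSS, while *ABI4*, *NCED5*, *MFT*, *GA20OX3* and *SPT* had none. All 8 regions had losses between -1.38 and -2.30, inside the range of the members at large.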

How the data were processed

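The data were 2 lists of regions from ATAC-seq of mature seeds, with positions in TAIR10 and, in a column of log2 values deposited by the authors, the fold change of *h3.3ko* over Col. Per the study's methods, the authors used fastp 0.20.1 for trimming and Bowtie2 for mapping to TAIR10, discarded organelle reads and, with Picard 2.24.0, duplicates, and kept MACS2 peaks found in both replicates. Peaks of the genotypes were merged and scored with deepTools. The threshold for listing was a change of over 2-fold and an adjusted p under 0.05. The test behind the lists and any shift for the Tn5 offset are not given in the sources used here, and peak edges can be off by some bases without a shift. The fold changes are the result of that comparison. They served to describe regions, with no test.

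Depth is unknown from the lists, which hold no value per library and no regions that did not change, so a share of tested regions cannot be given. Only regions strong enough to be called enter.

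Regions were joined by midpoint to the RefSeq annotation of TAIR10.1 on 5 chromosomes (27444 protein-coding genes, 5612 non-coding genes, 4843 pseudogenes), whose chromosome lengths cover all regions. A TSS was the outer boundary of a gene. Motifs were exact matches on both strands in 200 bp around midpoints. Shares were compared in 13 two-sided Fisher's exact tests with Benjamini-Hochberg adjustment (threshold 0.05), with Wilson and Woolf intervals at 95%. These cover counting error only, and neighbouring regions share an interval, so 1 region per interval was an alternative. Members, lists and tests were chosen with earlier results of these data known. Named were the 10 regions of largest loss, the 5 farthest from a gene, those at microRNA, snoRNA, snRNA or tRNA genes (up to 5 per kind), those nearest to a listed regulator, and 3 each by regions per interval, loss in gene-poor windows, G-boxes and nearness to the 500 bp limit on either side. Functions were tested on simulated data. Python 3.11.15, numpy 2.4.6, scipy 1.17.1 and matplotlib 3.10.9 were used.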

Additional observations from a re-analysis of the deposited data

How the results depend on the processing

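Limits of 250 and 1000 bp from the TSS, no base in a gene body, more than 4-fold change, the starts of all annotated mRNAs, 1 region per interval, other motif windows, midpoints inside non-coding genes and 15 genes per 100 kb were tried. Of 97 values of the 13 Fisher's exact tests, 91 kept direction and side of the threshold. By the exact test with 250 bp, the odds ratio of the G-box against other decreased regions fell to 1.15 (adjusted p = 0.180) and that of the telo-box against distal increased regions turned to 1.08 (adjusted p = 1.00). With more than 4-fold change, 184 regions remained, and the G-box (1.23) and RY element (1.91) against other decreased regions and gene-poor windows against distal increased regions (0.363) did not pass the exact test (adjusted p = 0.396, 0.0685 and 0.0966), with fewer regions tested. With no base in a gene body the RY element passed the exact test against distal increased regions (0.637, adjusted p = 0.0472). The share nearest to a TSS was 74.1% at 250 bp and 53.9% at 1000 bp, where the limit itself sets how near a TSS may be, and 69.0% with no base in a gene body. The cause of the other changes was not tested. Over the alternatives, the odds ratio of the nearest end being a TSS ranged from 3.20 to 7.50 and that of the G-box against distal increased regions from 3.16 to 5.65.

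No paired analysis was possible because the lists carry no value per library. For the same reason no replicate was left out. Depth limits which regions were listed. Counts of 10 to 24 regions (telo-boxes, gene-poor windows, pseudogenes) leave wide intervals.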
